A study of Arabidopsis thaliana with 20 samples.

Results

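Binding of HSFA1d 3 h after wounding (W3h) was compared with binding at wounding time 0 (WT0) in whole Arabidopsis thaliana seedlings, 2 weeks old. Of the 20 samples of the series, 4 belong to the comparison, 1 ChIP sample and 1 input sample at each time. All plants were of mixed Columbia-0 and Wassilewskija background and carried pHSFA1d::HSFA1d-GFP, so the untreated plants carry the fusion too, and its expression follows the HSFA1d promoter. Each sample held about 60 seedlings grown at 22 °C in constant light. Wounded seedlings had been cut several times with a razor blade and left on MS medium for 3 h. Chromatin bound by the fusion was pulled down through its GFP tag. Peak lists from 10 min (W10min) and 24 h (W24h) after wounding, from 30 min at 37 °C (HS) and from the untreated time 0 of the heat series (HT0) were used only to place the W3h peaks. W10min and W24h rest on 1 ChIP sample each, and HS and HT0 on 3 each.

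HSFA1d is a class A1 heat shock factor. These factors are held inactive by chaperones in unstressed cells and, when released by unfolded protein, bind heat shock elements in promoters and switch on chaperone genes and further heat shock factors. Wounding starts defence signalling through jasmonate, and in Arabidopsis the AP2/ERF factor WIND1 is known to promote callus formation at wound sites.

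A peak is a stretch of the genome that the authors' caller found enriched in ChIP reads. A W3h peak was called gained where it overlapped no WT0 peak by at least 1 bp, and a WT0 peak was called lost where it overlapped no W3h peak. These words describe 2 deposited lists, each from 1 ChIP sample, so no spread between replicates exists and no test was made. The W3h list held 548 peaks and the WT0 list 1405. Of the W3h peaks, 294 (53.6%) were gained and 254 met a WT0 peak. Of the WT0 peaks, 1152 (82%) were lost. The larger number of lost peaks goes with the longer WT0 list. With 548 peaks in each list, 382 were gained and 382 were lost.

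Depth cannot be compared between the lists, since only a floor of 10 M mapped reads (M, 1e6) per library is known. The W3h list reached a q of at most 0.05 at a fold enrichment of 1.80 and the WT0 list at 1.88, measured on the evenly spaced fold values that most peaks take. A given q was thus reached at a slightly lower fold in the shorter list. Peaks that touched a transposable element gene made up 23% of the W3h list and 6.19% of the WT0 list. The part of these values in the gains and losses was not tested.

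Among 27444 protein-coding genes, 632 had a peak in W3h and 1880 in WT0. A peak in W3h and none in WT0 was found for 291 genes (1.06%), a peak in both lists for 341 (1.24%) and a peak in WT0 alone for 1539 (5.61%). These 3 shares are the background for the gene lists below. Of the 288 genes named by a gained peak and by no WT0 peak, 117 had a W10min peak and 124 an HS peak. Among all 27444 genes, 1881 had a W10min peak and 2077 an HS peak.

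Most gained peaks were weak. A q above 0.05 was given to 166 of the 294. Strong peaks were those with a q of at most 0.001, and 43 of the 139 strong W3h peaks were gained (30.9%), while 129 of the 247 strong WT0 peaks were lost (52.2%). The strong gained peaks with the highest q had a fold of 1.99 (q = 6.13e-04), and the gained peaks next to the threshold on its other side had a fold of 2.04 (q = 0.00123). Fold values here are those the authors deposited, and they order peaks within 1 list, not between lists. Each strong gained peak was called kept where it overlapped a W10min peak and late where it overlapped none. By this rule 23 were kept and 20 were late. A W10min peak was thus met by 53.5% of the strong gained peaks, against 52.4% of all W3h peaks and 77.7% of all strong ones.

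Kept and late peaks were counted by the kind of gene they touched. Of the 26 strong gained peaks away from transposable element genes, 19 were kept and 7 were late. Of the 17 at transposable element genes, 4 were kept and 13 were late. Among strong W3h peaks shared with WT0, a W10min peak was met by 73 of 79 away from such genes and 12 of 17 at them. Among gained peaks that were not strong, it was met by 57 of 178 away from such genes and 13 of 73 at them. The lower share at transposable element genes was thus not particular to the strong gained peaks. The 26 peaks had a median width of 254.5 bp, and 25 of them touched a promoter. A row in both the promoter and the body of the same gene, so a position across the gene start, was found for 12, and 9 touched the promoters of more than 1 gene. The nearest WT0 peak was over 5 kb away for 20 of the 26 and within 1 kb for 3.

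**Figure D1:**
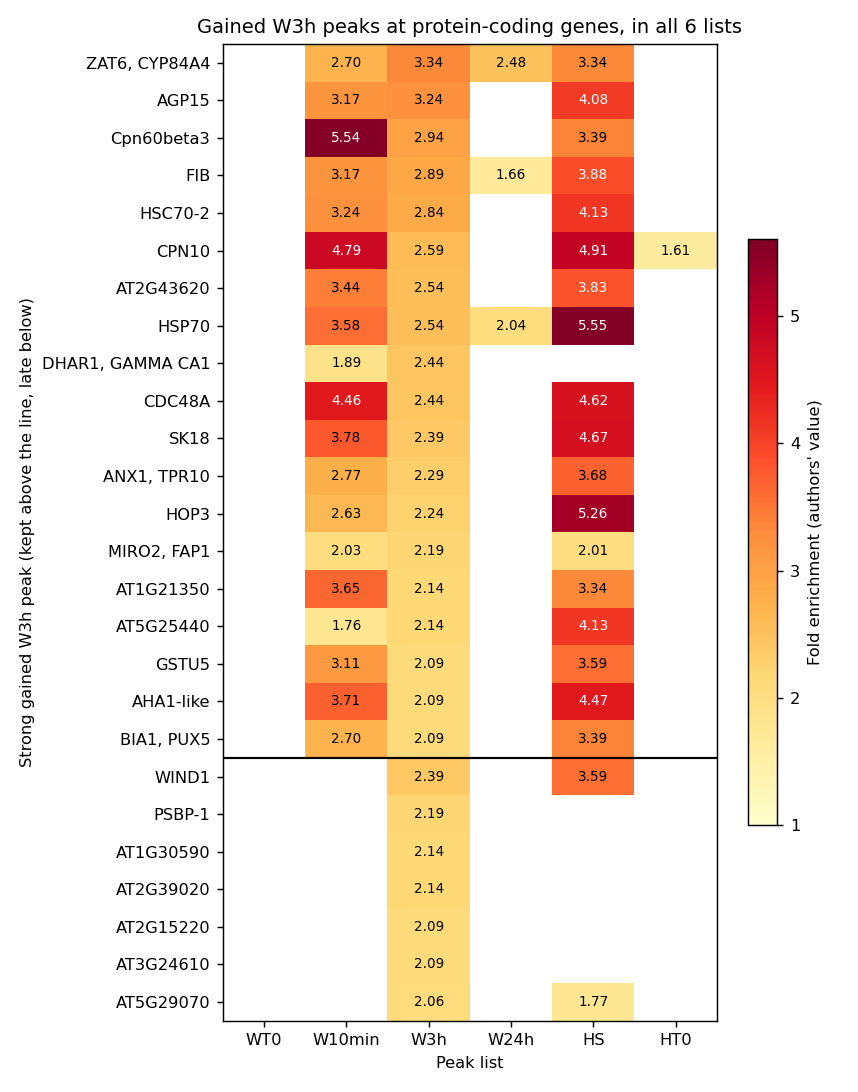
Fold enrichment (authors' value, colour and printed number) of the 26 strong gained W3h peaks at protein-coding genes, 1 row per peak, and of the peak each one overlapped in the other lists, 1 column per list. Blank cells had no overlapping peak, values compare only within a column, and 19 kept peaks stand above the line and 7 late peaks below it.

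Chaperone genes were named by 6 of the 19 kept peaks (31.6%). Among the 254 W3h peaks shared with WT0, of any strength and at any kind of gene, 19 named a chaperone or heat shock factor gene. The sets differ in strength and in kind of gene, so their shares do not compare. Cpn60beta3 (AT5G56500), a subunit of the chloroplast chaperonin, had a promoter peak at chromosome 5, 22873537 to 22873765 (TAIR10), with a fold of 2.94 in W3h and 5.54 in W10min. The same peak lay in the promoter of AT5G56480. CPN10 (AT1G14980), the mitochondrial co-chaperonin, had a peak across its start at chromosome 1, 5166547 to 5166913, with 2.59 in W3h and 4.79 in W10min. That peak also lay in the promoters of AT1G14970 and scpl50. CPN10 was the 1 peak of the 26 with an overlapping peak in the untreated HT0 list, where its fold was 1.61 (q = 0.155).

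The cytosolic HSP70 genes were represented by HSP70 (AT3G12580) and HSC70-2 (AT5G02490), which encode ATP-driven folding chaperones. HSP70 had a peak at chromosome 3, 3993724 to 3993993, with 3.58 in W10min, 2.54 in W3h and 2.04 in W24h. HSC70-2 had a peak at chromosome 5, 552582 to 552892, with 2.84 in W3h and 3.24 in W10min. HSC70-2 was not free of WT0 peaks: a weak one, with a fold of 1.74 (q = 0.137), lay 1283 bases away in its promoter.

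Partners of the large chaperones completed the group. HOP3 (AT4G12400), which bridges HSP70 and HSP90, had a fold of 2.24 in W3h and 2.63 in W10min at chromosome 4, 7341243 to 7341528. A gene for a protein like the HSP90 ATPase activator AHA1 (AT3G12050) had 2.09 in W3h and 3.71 in W10min, at a peak also in the promoter of AT3G12040. CDC48A (AT3G09840), an ATPase that pulls ubiquitinated proteins out of complexes and membranes, had 2.44 in W3h and 4.46 in W10min. The promoter peak shared by BIA1, PUX5 and ATB' GAMMA had 2.09 in W3h and 2.70 in W10min, and PUX5 encodes a partner of CDC48. By the rule for gained peaks, none of these overlapped a WT0 peak.

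Gained peaks outside the chaperone lists included those with the 2 highest folds. The highest fold, 3.34 (q = 1.78e-15), was at chromosome 5, 1217197 to 1217599, in the promoters of the zinc finger stress regulator ZAT6 (AT5G04340), the cytochrome P450 gene CYP84A4 and AT5G04347. In the wounding series this site had a peak at 10 min (2.70), 3 h (3.34) and 24 h (2.48) and, as the rule for gained peaks requires, none in WT0. These folds come from separate lists and do not rank the times. It was one of 3 peaks among the 26 that were also in W24h, with those of HSP70 and FIB. Next stood the promoter of AGP15 (AT5G11740), an arabinogalactan peptide of the cell surface, with 3.24 in W3h and 3.17 in W10min. A WT0 peak lay 520 bases from it, so the AGP15 promoter was not free of peaks at time 0. FIB (AT4G04020), a fibrillin of plastid lipid bodies, had 2.89 in W3h and 3.17 in W10min.

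Further kept peaks lay at SK18 (2.39 in W3h and 3.78 in W10min), in the promoter of ANX1 and inside TPR10 (2.29 in W3h and 2.77 in W10min) and at the glutathione transferase gene GSTU5 (2.09 in W3h and 3.11 in W10min). Of the 19 kept peaks away from transposable element genes, 16 met a W10min peak with a q of at most 0.001. The 3 with a weaker W10min peak lay at DHAR1 and GAMMA CA1 (1.89 in W10min, q = 0.0674), at MIRO2 and FAP1 (2.03, q = 0.0145) and at AT5G25440 and AT5G25450 (1.76, q = 0.270). For these 3 the word kept rests on a weak 10 min peak. GSTU5, DHAR1 and GAMMA CA1 were not free of WT0 peaks, which lay 699 bases from the W3h peak at GSTU5 and 3750 bases from that at DHAR1 and GAMMA CA1.

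Most kept sites were also listed after heat. An HS peak was met by 18 of the 19 kept peaks away from transposable element genes (94.7%), and 17 of those 18 reached a q of 1e-05 or lower in HS. The exception with no HS peak was the site at DHAR1, which encodes a dehydroascorbate reductase. Of the 7 late peaks, 2 met an HS peak. For comparison, an HS peak was met by 57 of the 178 weak gained peaks away from transposable element genes (32%), by 57 of the 79 strong shared ones (72.2%) and by 43 of the 129 strong lost WT0 peaks (33.3%). The untreated HT0 list held 1 of the 26 strong gained peaks and 37 of the 79 strong shared peaks.

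**Figure D2:**
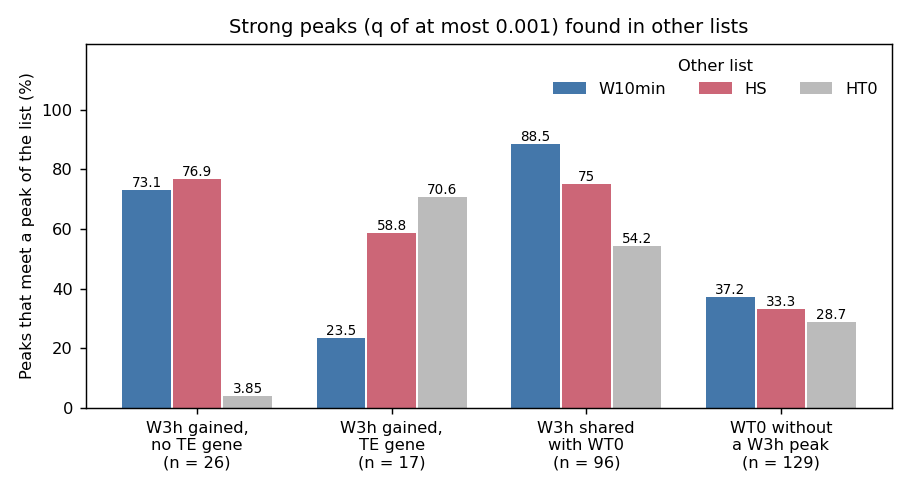
Percent of strong peaks (q of at most 0.001) that overlapped a peak of the W10min, HS or HT0 list (bars), for W3h peaks gained over WT0 away from and at transposable element (TE) genes, W3h peaks shared with WT0, and WT0 peaks without a W3h peak. Gained peaks away from TE genes met HS in 76.9% and HT0 in 3.85%, and those at TE genes met HT0 in 70.6%. Strong shared W3h peaks at TE genes, not drawn apart, met HT0 in 88.2%.

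The 7 late peaks at protein-coding genes had W3h folds between 2.06 and 2.39, and the 19 kept ones between 2.09 and 3.34. The highest late fold belonged to WIND1 (AT1G78080). The others lay at PSBP-1, which encodes a protein of the photosystem II oxygen-evolving complex, at AT1G30590, AT2G15220, AT3G24610 and AT5G29070, and in the promoter of AT2G39020, where the peak also lay inside the aquaporin gene PIP2E. The PSBP-1 peak lay inside the gene and was 790 bases from a WT0 peak. Apart from WIND1, AT5G29070 was the 1 late site of the 7 with an HS peak, with a fold of 1.77 (q = 0.0104).

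At WIND1 the call of late depends on a gap of 42 bases. The W3h list held 2 promoter peaks there. The stronger one, at chromosome 1, 29361248 to 29361542, had a fold of 2.39 (q = 2.80e-06) and overlapped no W10min peak. The weaker one, at 29361710 to 29361872, had a fold of 1.99 (q = 0.00269) and lay whole inside a W10min peak at 29361585 to 29361907, whose fold was 1.89 (q = 0.0674). Both W3h peaks and that W10min peak lay whole inside 1 HS peak at 29361248 to 29362043, with a fold of 3.59. The WT0 list held no peak in the WIND1 promoter and 1 weak peak inside the gene, with a fold of 1.64 (q = 0.603). By gene rather than by overlap, WIND1 was listed at 10 min as well.

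**Figure D3:**
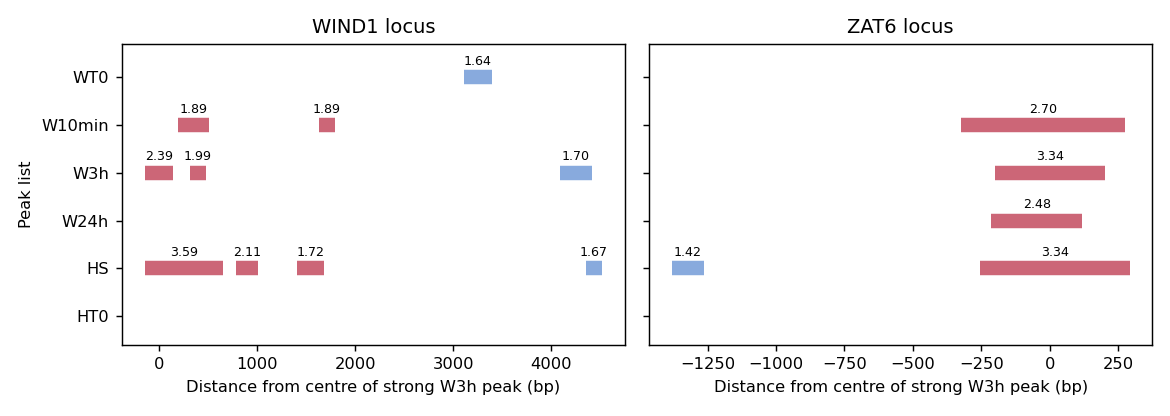
Peaks of the 6 lists (1 row each) at WIND1 and ZAT6, by distance in bp from the centre of the strong W3h peak, with promoter peaks in red, peaks inside the gene in blue and the authors' fold above each. At WIND1 the strong W3h peak (2.39) stops 42 bases short of a W10min peak (1.89), and at ZAT6 the W10min, W3h, W24h and HS peaks overlap and WT0 and HT0 have none.

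The strong gained peaks at transposable element genes had W3h folds between 1.61 and 2.79, led by AT5G35046. Of the 17, 12 met a peak of the untreated HT0 list (70.6%) and 10 met an HS peak, but no such HS peak reached a q of 1e-05 or lower. Peaks at transposable element genes made up 43.6% of the HT0 list. An HT0 peak was also met by 56.2% of the weak gained and 88.2% of the strong shared W3h peaks at such genes. Most of these sites were therefore listed in 1 of the 2 untreated lists. With WT0 and HT0 together as control, 30 of the 43 strong gained peaks overlapped no control peak.

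Gene families were then counted by role. The 6 lists of chaperones, co-chaperones and heat shock factors held 95 genes. Of these, 12 had a peak in W3h and none in WT0 (12.6%, against 1.06% of all coding genes), 19 had one in both lists (20%, against 1.24%) and 7 had one in WT0 alone (7.37%, against 5.61%). All 12 gained members had an HS peak, 11 had a W10min peak, and 11 had a W3h q of at most 0.05. Of all 95 members, 63 had an HS peak and 46 a W10min peak. Of the 7 lost members, 2 had a WT0 q of at most 0.05. The share of gained members was above its background, as was the share with a peak in both lists. Among genes with a W3h peak, 12 of 31 members were gained, against 291 of 632 coding genes. Members bound at 3 h were thus not gained more often than other bound genes. The count of lost members moved with the settings, to 3 with both lists at a q of at most 0.05, 2 with lists of equal length and 12 with W3h peaks at a q of at most 1e-05.

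**Figure D4:**
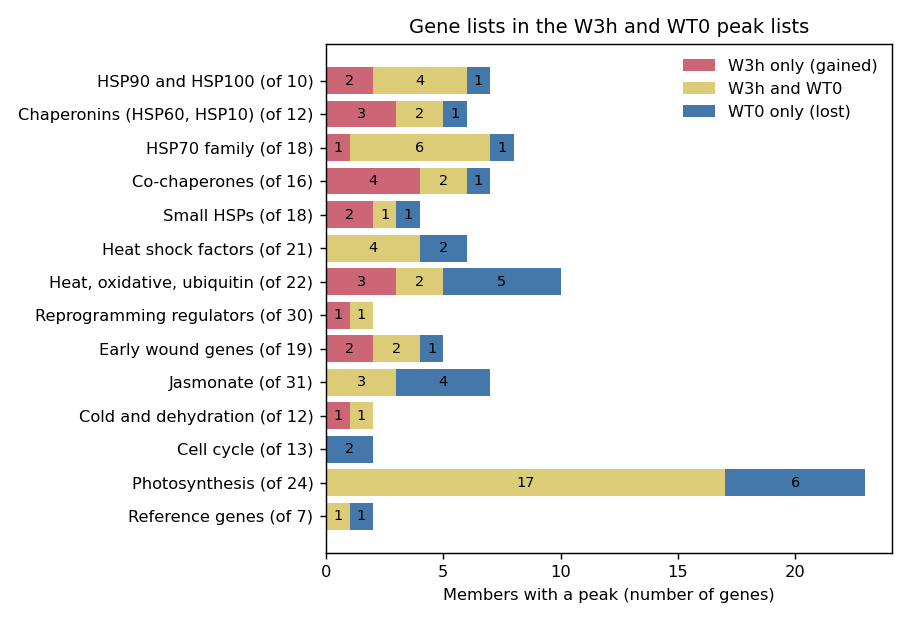
Number of members of each gene list with a peak in W3h alone, in W3h and WT0, or in WT0 alone (stacked bars); the number after each name is the list's size. The chaperonin and co-chaperone lists gained 3 and 4 members (25% each, against 1.06% of all coding genes). The jasmonate, photosynthesis and cell cycle lists gained none.

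Gained members differed in strength. The share gained was 25% of co-chaperones, 25% of chaperonins, 20% of HSP90 and HSP100 genes and 11.1% of small heat shock proteins. The HSP70 family gained 5.56% and the heat shock factors none, against 1.06% of all coding genes. Co-chaperones gained 4 of 16 members, with HOP2 (1.85 in W3h) and the HSP40 protein J2 (1.94) beside HOP3 and the AHA1-like gene. Chaperonins gained 3 of 12, with the chloroplast co-chaperonin CPN20 (1.94, q = 0.00572) beside Cpn60beta3 and CPN10. HSP90 and HSP100 genes gained 2 of 10. These were the cytosolic HSP90.1 (1.85 in W3h, 2.43 in W10min) and the chloroplast HSP90.5 (1.75 in W3h, q = 0.0908, and a W10min peak with q = 3.27e-14). Small heat shock proteins, which keep unfolding proteins soluble, gained 2 of 18: HSP17.8 (1.90) and the mitochondrial HSP23.6 (1.85, q = 0.0240). HSP23.6 was the 1 gained member of the 6 lists with no W10min peak, and it had one of 4.22 in HS. Of the 21 heat shock factor genes none was gained, 4 had a peak in both lists (19%) and 2, HSFA3 and HSFB1, had one in WT0 alone (9.52%).

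The chaperone genes lost at 3 h were weak in WT0, apart from a pair of chloroplast proteins. The co-chaperonin CHL-CPN10 (AT2G44650) had a WT0 fold of 3.09 (q = 1.27e-10), and cpHSC70-1 had 2.24 (q = 3.52e-04). Both had no W3h peak and both had a W10min peak, of 2.23 for CHL-CPN10 and 3.17 for cpHSC70-1. The other 5, CLPB4, BAG7, HSP17.6A-CI, HSFA3 and HSFB1, had WT0 folds with a q above 0.05.

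Lists tied to wounding gained 1 of 30 reprogramming regulators (3.33%), 2 of 19 early wound genes (10.5%) and no jasmonate gene, against 1.06% of all coding genes. Among the reprogramming regulators, PLT3, an AP2 factor of stem cell and regeneration programmes, was gained with a fold of 1.85 (q = 0.0240), and WIND1 counted as present in both lists because of its WT0 peak inside the gene. Among the early wound genes, ZAT6 and WRKY40 (1.80, q = 0.0474) were gained. PLT3 and WRKY40 had a peak in neither W10min nor HS. Of 31 jasmonate genes none was gained and 4 were lost (12.9%, against 5.61% of all coding genes). Among genes with a WT0 peak, 4 of 7 jasmonate genes were lost, against 1539 of 1880 coding genes. Lost were the synthesis enzyme gene AOS (1.88 in WT0), the conjugating enzyme gene JAR1 (2.37) and the repressor genes JAZ2 (1.94) and JAZ10 (2.24). Of 13 cell cycle genes none was gained and 2 were lost, against 1.06% and 5.61% of all coding genes. Lost were E2FA, with a WT0 fold of 1.70 (q = 0.335), and RBR1, with 1.88 (q = 0.0456). These were the only cell cycle genes with a WT0 peak.

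Other lists were split. In the list of heat, oxidative stress and ubiquitin genes, 3 of 22 were gained (13.6%, against 1.06% of all coding genes). They were CDC48A, the transcription factor gene DREB2C (1.55, q = 0.911) and UBQ11 (1.65, q = 0.306). The same list lost 5 members (22.7%, against 5.61% of all coding genes). Among genes with a WT0 peak, 5 of 7 members were lost, against 1539 of 1880 coding genes. The lost members were the catalase genes CAT1, CAT2 and CAT3 and the galactinol synthase genes GOLS1 and GOLS2. Only CAT2 (2.18) and GOLS2 (2.37) of these 5 had a WT0 q of at most 0.05. CAT1 and CAT3 are neighbouring genes and were lost through the same WT0 peak, with a fold of 1.82 (q = 0.0919). Of 12 cold and dehydration genes KIN2 was gained (8.33%), with a fold of 1.65 (q = 0.306).

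Photosynthesis genes had peaks at both times. Of 24 members, 17 had a peak in W3h and WT0 (70.8%), 6 in WT0 alone (25%) and none in W3h alone. The same shares of all coding genes were 1.24%, 5.61% and 1.06%. RBCS1A, a Rubisco small subunit gene, had a fold of 2.40 in W3h and 3.03 in WT0, inside the gene. An HS peak was found for 3 of the 24, against 63 of the 95 genes of the chaperone and heat shock factor lists. Over all 27444 coding genes, 2077 had an HS peak. The actin gene ACT7 was lost from the 7 reference genes, with a WT0 fold of 1.52 and a q of 1.

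Peaks present at both times differed in their place within each list. The 254 W3h peaks that met a WT0 peak were ranked by fold in each list, over the same peaks, with rank 1 the highest. The 19 chaperone and heat shock factor peaks had a median rank of 27 in W3h and 91 in WT0, and 13 of them stood higher in W3h. The 21 photosynthesis peaks had median ranks of 83 in W3h and 118 in WT0, with 12 higher in W3h. The 36 peaks at transposable element genes had medians of 175 in W3h and 175.5 in WT0, with 20 higher in W3h. The 178 others had 138 in W3h and 119 in WT0, with 81 higher in W3h. These ranks describe 1 pair of lists and carry no error.

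Single genes show the spread behind these medians. HSC70-3 (AT3G09440) had the highest rank in W3h (5.19-fold) and rank 21 in WT0 (3.21-fold). The shared promoter of HSP90.3 and HSP90.4 had rank 3 in W3h (4.69-fold) and rank 76 in WT0 (2.31-fold). J3, an HSP40 partner of HSP70, had rank 13 in W3h and 91 in WT0, and HSFA7A had rank 59 in W3h and 232 in WT0. Other chaperone genes stood lower in W3h: HSC70-1 had rank 5 in W3h and 2 in WT0, HSP70-15 had 59 in W3h and 34 in WT0, and HSP101, the disaggregase, had 184 in W3h and 144 in WT0. Outside the chaperone lists, the transcription factor gene NAC2 (AT5G04410) had rank 10 in W3h and 76 in WT0.

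**Figure D5:**
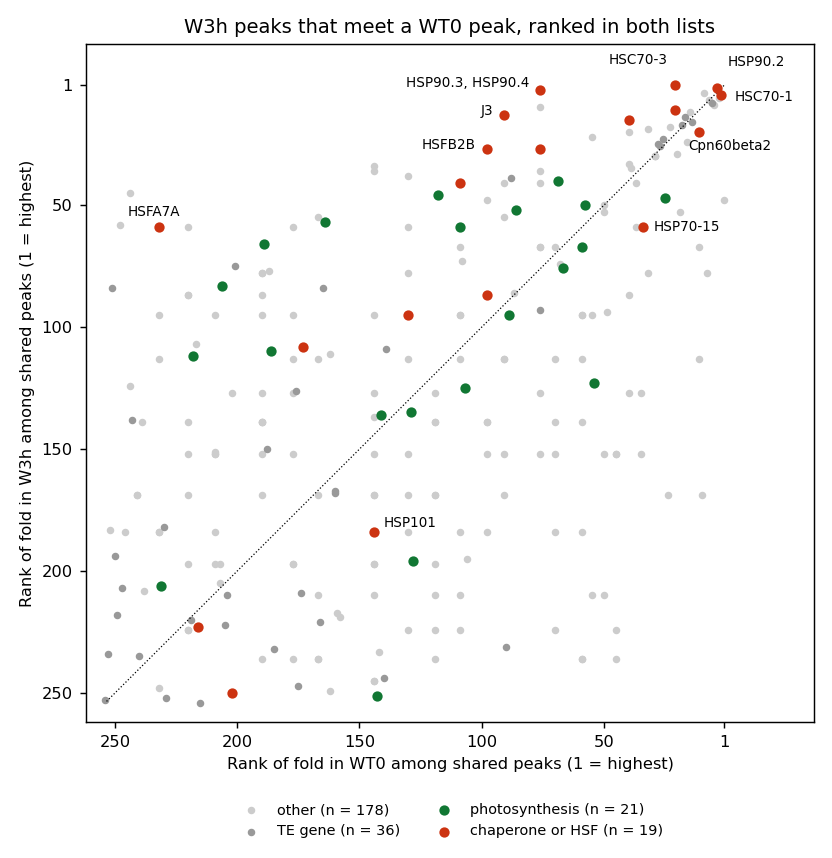
Rank by fold enrichment in W3h (vertical axis) and in WT0 (horizontal axis) of the 254 W3h peaks that met a WT0 peak, 1 point per peak, with rank 1 at the upper right. Points above the dotted line stood higher in W3h. These were 13 of the 19 chaperone and heat shock factor peaks and 12 of the 21 photosynthesis peaks. They were also 20 of the 36 peaks at TE genes and 81 of the 178 others.

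HSFA2 and HSFA1D were listed at both times. HSFA2 encodes a heat shock factor known to extend thermotolerance. Its peak across the gene start had a WT0 fold of 3.21, a W10min fold of 7.22 and a W3h fold of 3.34. In W24h its peak lay in the promoter, with a fold of 1.97. Folds of separate lists do not rank the times. HSFA1D had 1.98 in W3h and 1.88 in WT0. The line carries an added copy of the HSFA1D promoter and gene, and reads from the added and the native copy cannot be told apart.

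The lost peaks of highest WT0 fold lay at GCP1 (3.46), which encodes an organelle glycoprotease-like protein, at the cytochrome P450 gene CYP78A9 (3.21), at CHL-CPN10 (3.09), at AT1G13730 (3.03) and at AT4G17810 (2.97). All 5 touched promoters. Of these, CYP78A9 had no W10min peak and no HS peak, and the other 4 met a peak in both lists. Across the 129 strong lost peaks, 48 met a W10min peak (37.2%), against 85 of the 96 strong shared W3h peaks (88.5%).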

How the data were processed

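Peaks came from HSFA1d-GFP ChIP-seq of whole seedlings, with 1 ChIP and 1 input sample per wounding time. Bowtie2, SAMtools, MACS2 and the TAIR10 build are named, per the submitters' processing notes. For versions and any q filter, the sources used here give nothing. Per the file headers, the authors deposited a fold enrichment (a ratio) and a −log10 q for every row, and q was computed here from the second. Libraries were read to at least 10 M mapped reads of 50 bases, per the labels' protocols, and other depths are unknown.

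Starts count from 0, since 127 W3h rows equal a reference gene start after adding 1 and 3 do so before, and 1 was added. Rows of 1 list that shared fold and q and overlapped, or lay no more than 1 base apart, were merged into a peak, giving 626 W3h peaks from 1185 rows and 1483 WT0 peaks from 2859. Chromosome 2 from 3.2 to 3.65 Mb and its first 50 kb were dropped (78 peaks in each list). Joining and overlap were tested on simulated data. Symbols came from RefSeq (TAIR10.1), used for names only, and all 253 genes of the 14 lists matched. Named genes were those at the 25 strong gained peaks of highest fold, up to 6 members of each list with a W3h peak and up to 6 with a lost WT0 peak, the 10 shared and 5 lost peaks of highest fold, and 4 loci (HSFA1D, HSFA2, WIND1, ZAT6). Chosen after seeing values were the remaining late genes, AT5G25440 with its neighbour, GSTU5, and PUX5 with its neighbours. The comparison, members and lists were chosen with earlier results of these data known. No genome was used, so motifs were not counted. Python 3.11.15 and pandas 2.3.3 were used.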

Additional observations from a re-analysis of the deposited data

How the results depend on the processing

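Each setting was recomputed with the others kept. No paired analysis was possible because each time has 1 list, from 1 ChIP sample, and no replicate can be left out. The 294 gained peaks became 128 with W3h peaks at a q of at most 0.05, 18 at 1e-05, 172 with both lists at 0.05 and 191 with promoter rows only. The 288 gained coding genes became 119, 14 and 164 under the first 3 of these. Other settings raised the gained peaks, to 357 with reciprocal overlap of 50%, 382 with lists of equal length and 424 without joining. Strong gained peaks then numbered 57, 61 and 72. The 43 strong gained peaks became 18 at 1e-05, both as a filter on W3h and as the threshold for strong, 128 with strong set at 0.05, 72 without joining, and 26 both with promoter rows only and, chosen after seeing the data, without transposable element genes. The kept share of 53.5% became 72.2% at 1e-05 both ways, 37.5% with strong at 0.05, 76.9% with promoter rows and 73.1% without transposable element genes. The 1152 lost peaks became 543 with both lists at 0.05 and 382 with lists of equal length. The 12 gained chaperone and heat shock factor members became 3 at 1e-05 and 15 with lists of equal length. In each of these the alternative tests fewer or more peaks, or changes the overlap rule, by construction. Reciprocal overlap of 50% left kept or late unchanged for 39 of the 43 peaks, and counting by gene gave 67.4% kept. With 1 list per time, depth and sample cannot be told apart from time.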
